A study of Mus musculus with 28 samples.

Results

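Nascent transcription of EloA null mouse embryonic stem cells (mESCs) was compared between 10 min of recovery from flavopiridol (FP) and steady state. The comparison takes the 4 EloA null libraries that were labelled with 5-bromouridine (BrU) for 10 min, 2 for each condition, of 12 Bru-seq libraries and 28 samples in the series. Rows of both tables were joined by gene name, and a gene was kept where its mean RPKM (reads per kilobase of counted length, scaled by library size) was above 0.5 in either condition. This left 11572 of 24984 listed genes, 9517 of them above the limit in both conditions, 1613 in steady state alone and 442 at 10 min alone. In steady state, EloA null cells received 2 mM BrU for 10 min and no drug. In the recovery libraries, FP at 1 µM was given to the null cells for 60 min before they were washed with PBS and given 2 mM BrU for 10 min. WT cells under both treatments (2 libraries each) and EloA null cells given BrU for 5 min after the wash (2 libraries) serve for reference.

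All of these cells were murine embryonic stem cells, named CCE28 in the growth label. They were cultured over inactivated fibroblast feeders with LIF and the inhibitors PD0325901 and CHIR99021 (2i), then freed of feeders and moved to gelatin before labelling. The treatment label names CJ7 cells instead, and which name applies is not settled here. The EloA null cells are 1 line, so what belongs to the line and what belongs to the loss of EloA cannot be told apart. The paper speaks of duplicate, independent experiments without naming cultures, so p-values measure the spread between these libraries. Each condition also has its own table, and condition and processing batch cannot be told apart. Bulk RPKM is relative to the library total, so fewer cells, less RNA per cell and a lower labelling of all genes cannot be told apart here.

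FP inhibits P-TEFb, the kinase of CDK9 and cyclin T that releases RNA polymerase II (Pol II) from its pause just downstream of the start site. Under the drug, new polymerases stay near the promoter, while those already past the pause run on to the gene's end. When the drug is removed, the paused polymerases set off together, and a wave of new RNA moves from the start of each gene towards its end. BrU is built into RNA as it is made, so the immunopurified RNA reports what was transcribed during the pulse. Elongin A, encoded by Eloa, is the large subunit of Elongin, which stimulates elongation by Pol II in vitro and, with elongins B and C and the cullin CUL5, serves as a ubiquitin ligase of stalled Pol II.

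Depth was similar on both sides. The library sizes recovered from the smallest RPKM steps were 23138348 and 27954236 reads in steady state, against 19965329 and 28547356 reads at 10 min. More genes passed 0.5 RPKM in steady state (11103 and 11107) than at 10 min (10032 and 9836). One steady-state library has a title of EloA null and a genotype label of wild type. Its genes on chromosome 14 stood at a median log2 ratio of 0.45 over WT, against 0.39 in the other steady-state library and 0.38 and 0.45 in the 10-min libraries, so all 4 carried the same displacement of that chromosome. Without this library, 4083 genes were higher and 3506 lower. Feeder fibroblast markers summed to 16.0 and 15.3 RPKM in steady state and 15.6 and 15.1 at 10 min. Only 3 of those 12 markers entered the comparison, and their part in the results was not tested. Between 1 and 2 of the 12 were at 0 in each library. Among the 3, Col1a1 had 0.413 and 0.521 RPKM in steady state and 1.01 and 0.749 at 10 min (log2 ratio 0.72, called higher). The other members, Fn1 (-0.21) and Vim (0.13), did not pass the test. None of the 6 endoderm and 5 2-cell-like markers passed the RPKM limit, while the core and naive pluripotency genes summed to 329 and 352 RPKM in steady state and 486 and 468 at 10 min.

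After 10 min of recovery, the relative nascent RNA of most genes lay off its steady-state level, in both directions. With limma on log2(RPKM + 0.1), each library centred on its median, 4277 of 11572 genes (37.0%) were higher at 10 min and 3976 (34.4%) were lower at an adjusted p under 0.05. A further 3319 genes did not pass. Past 2-fold, 2125 genes were higher and 1805 lower. Past 8-fold the lower genes prevailed, with 22 genes higher and 142 lower. Genes spanning under 1 kb, most of them small RNAs, had a 10th percentile of -3.14. In every other length class it was -1.51 or above. How many of the 142 are under 1 kb was not counted. The median standard error (SE) of a log2 ratio was 0.121. Of the called genes 51.8% were higher, a split that depends on centring, since without a filter on low values the centre moves by 0.547 on the log2 scale and 81.3% of the calls among the same genes are then higher. The 1613 genes above the RPKM limit in steady state alone could only differ downwards, and 1446 of them were lower. The 442 genes above it at 10 min alone could only differ upwards, and 311 were higher.

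The direction followed the length of the gene. Genes with a span of 5 to 10 kb (1534 genes) had a median log2 ratio of 0.67, a 1.59-fold level, and 60.7% of them rose while 15.9% fell. Genes of 10 to 20 kb (2214 genes) were alike, with a median of 0.69 and 61.7% higher. The ratio crossed zero in the next classes, at 0.15 for 20 to 40 kb (42.5% higher, 31.9% lower) and -0.55 for 40 to 80 kb (11.1% higher, 62.1% lower). The lowest median belonged to the 983 genes of 80 to 160 kb, at -0.81 or 0.570 of the steady-state level, with 3.05% higher and 82.6% lower. Beyond this class the ratio returned towards the centre, to -0.46 for 160 to 320 kb and -0.09 for the 96 genes over 320 kb. At the other end, genes of 2 to 5 kb had a median of 0.32, those of 1 to 2 kb 0.09, and those under 1 kb, most of them small RNAs, -0.22.

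The 10-min libraries gave nearly the same profile. In genes of 5 to 10 kb their medians were 0.71 and 0.65, and in genes of 80 to 160 kb -0.85 and -0.77. WT cells followed the same curve, at 0.61 and -0.76 in these classes, and the median null minus WT difference per gene stayed between -0.06 and 0.05 in every class. At 5 min of recovery the null cells had another profile. Genes of 5 to 10 kb stood at 0.24, genes of 20 to 40 kb at -0.39, genes of 80 to 160 kb at 0.41 and those over 320 kb at 1.93, each relative to its own library median.

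**Figure D1:**
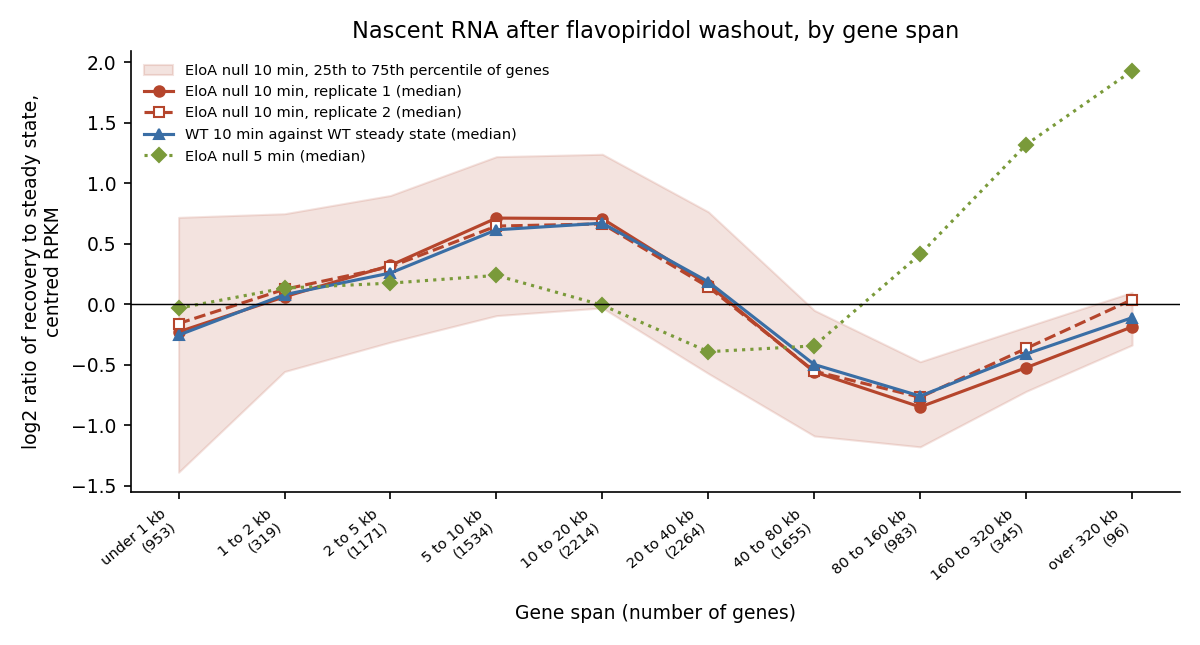
Median log2 ratio of recovery to steady state (centred RPKM, vertical axis) by class of gene span (horizontal axis, number of genes in brackets) for each EloA null 10-min library, for WT at 10 min and for EloA null at 5 min; the band spans the 25th to 75th percentile of genes in EloA null cells at 10 min. Both 10-min null libraries peak at spans of 5 to 20 kb and reach their lowest medians at 80 to 160 kb, with the WT line close to them.

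The share of reads moved with the same boundaries. Genes of 80 to 160 kb held 25.1% and 25.6% of the reads in steady state and 15.6% and 15.7% at 10 min. Genes of 10 to 20 kb held 8.24% and 7.74% in steady state and 16.1% and 15.5% at 10 min. For 1 value per library, each gene's log2 value was first set against its own mean over the 4 libraries. In these deviations, the median of genes under 10 kb minus that of genes over 60 kb was -0.51 and -0.51 in steady state. At 10 min it was 0.59 and 0.49 (3976 and 2016 genes). The values of the conditions roughly mirror each other by construction, so only their difference is read, not the level in either condition. The groups do not overlap. The difference of 1.05 (pooled SD 0.0511, n = 2 against 2), or 2.07-fold, had an exact two-sided permutation p of 0.333, the smallest that 2 against 2 libraries allow. It was 0.63 with a pseudocount of 1 and 0.31 without the filter on low values.

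The genes with the highest overshoots had at most 2.70 RPKM in steady state, which is also the denominator of the ratio. This limit is not low for these data, as the median steady-state RPKM of the length classes ran from 1.07 to 2.17. Named by the fixed rule (called, no overlap between groups, at least 100 reads on average over the 4 libraries and a span of at least 1 kb), the 10 highest ratios ran from 2.78 to 3.98 on the log2 scale. Pigz, which adds a mannose to glycosylphosphatidylinositol anchors (chr16:31933851-31946046, GRCm38.p6, plus strand), had 0.220 and 0.179 RPKM in steady state and 5.50 and 4.22 at 10 min. Its 50 to 51 reads in each steady-state library became 1100 and 1206, a 24.4-fold rise (log2 ratio 3.98, SE 0.15, limma adjusted p = 0.000771). Hist1h2bc, a histone H2B gene (chr13:23684199-23692480, plus strand), rose from 1.26 and 1.02 RPKM to 13.9 and 15.7 (log2 ratio 3.54, SE 0.15, limma adjusted p = 0.000771). Both 10-min libraries were thus above 10 RPKM and both steady-state libraries below 2 for this gene.

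Mcmdc2, a relative of the MCM helicases that acts in meiotic recombination (chr1:9908638-9940954, plus strand), had 0.678 and 0.568 RPKM in steady state and 7.35 and 7.08 at 10 min, an 11.6-fold rise. Scrg1 rose 27.8-fold from 0.0598 and 0.0580 RPKM, the lowest starting level of the 10. The zinc-finger genes Zfp14 and Zfp345 rose 11.0- and 8.20-fold, the receptor gene Gpr75 9.12-fold and Epm2aip1, whose product binds laforin, 7.36-fold. The unnamed loci 1700001P01Rik and 1700110C19Rik rose 8.73- and 7.81-fold. All 10 were higher in both 10-min libraries than in either steady-state library, which the rule required of them.

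Genes with more reads behind them overshot as well, the 5 named here by 5.93- to 7.17-fold. These were picked after the values were seen, as protein-coding genes with over 1000 reads on average and no overlapping gene. Dad1, a subunit of the oligosaccharyltransferase (chr14:54235485-54253929, minus strand), had 2.59 and 2.36 RPKM in steady state and 14.6 and 15.4 at 10 min, a 6.05-fold rise. Nxf1, the general mRNA export receptor (chr19:8757103-8770910, plus strand), had 2.51 and 2.31 RPKM and then 15.2 and 15.7, a 6.40-fold rise. Sap30, a subunit of the SIN3 deacetylase complex whose gene lies close to Scrg1 on chromosome 8, rose 7.17-fold. Zfp622 rose 5.93-fold, from 5.45 and 4.54 to 29.0 and 30.3 RPKM, and Nfe2l3, a basic leucine-zipper factor, rose 6.82-fold.

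**Figure D2:**
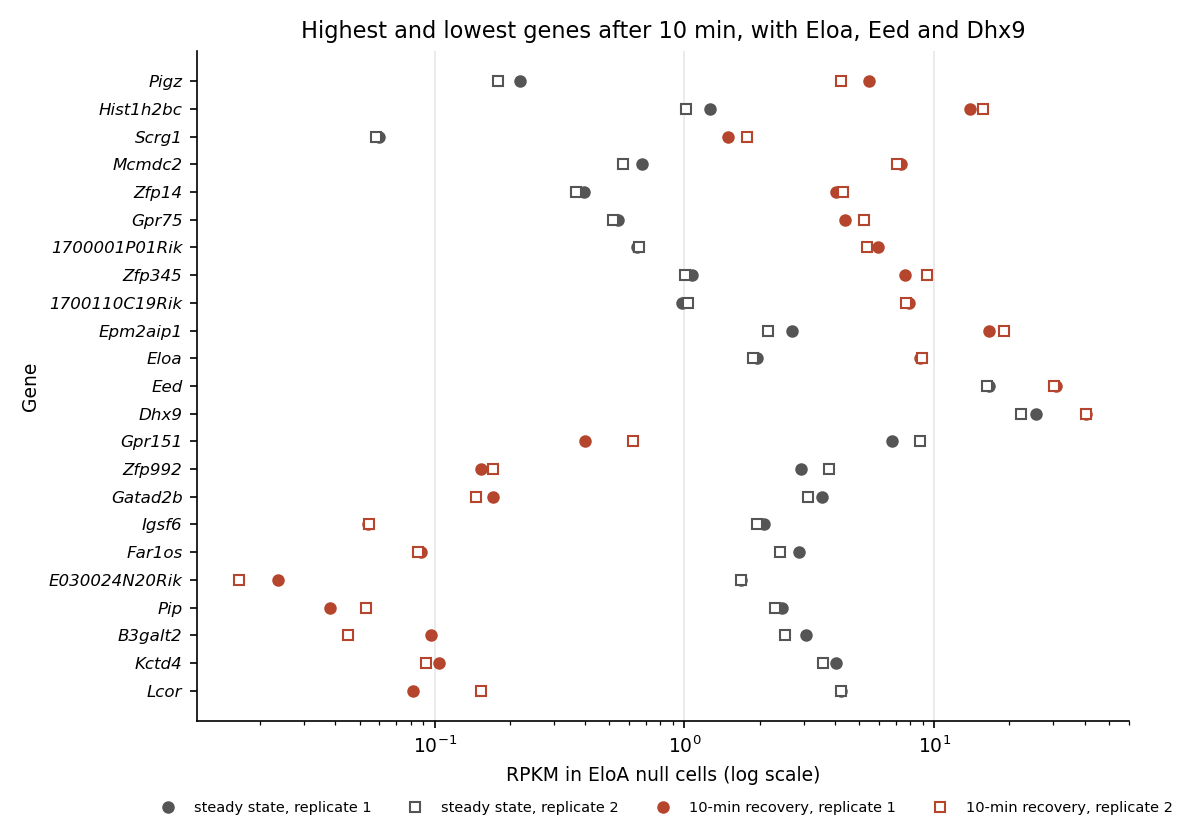
RPKM in each EloA null library (horizontal log axis; grey for steady state, red for 10-min recovery; circles and squares are replicates 1 and 2) for the 10 highest and 10 lowest genes by the fixed rule, with Eloa, Eed and Dhx9 between them. The rule required non-overlapping values of the 10 highest and 10 lowest genes. Pigz at the top had 0.220 and 0.179 RPKM in steady state and 5.50 and 4.22 at 10 min. Lcor at the bottom had 4.24 and 4.25 RPKM and then 0.0822 and 0.153.

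The genes that lagged furthest had almost no nascent RNA at 10 min. Lcor, which encodes a ligand-dependent nuclear receptor corepressor (chr19:41482682-41596161, plus strand, 113480 bases), had 4.24 and 4.25 RPKM in steady state and 0.0822 and 0.153 at 10 min. Its reads fell from 9641 and 11684 to 161 and 430, 36.1-fold lower in RPKM (log2 ratio -4.40, SE 0.21, limma adjusted p = 0.000771). This was far below the median of its length class. Gatad2b, a subunit of the NuRD remodelling complex (chr3:90293181-90363403, plus strand), fell 21.0-fold, from 3.56 and 3.12 RPKM to 0.172 and 0.147. Pip, a secreted protein gene of 4517 bases, fell from 2.45 and 2.31 RPKM to 0.0381 and 0.0532, which rest on 3 and 6 reads. Zfp992 fell 20.7-fold and Gpr151 15.2-fold.

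Further lagging genes with over 1000 reads and no overlapping gene, also picked after the values were seen, came from several pathways. Pik3ca, the catalytic p110 alpha subunit of PI 3-kinase (chr3:32397065-32466107, plus strand), had 2.05 and 1.96 RPKM in steady state and 0.126 and 0.124 at 10 min, 16.0-fold lower. Arhgap5, a GTPase-activating protein, was 13.0-fold lower, and Slc16a4, of the monocarboxylate transporter family, was 12.6-fold lower although its span is only 20886 bases. Phf21b was 11.5-fold lower, Chsy1, a chondroitin synthase, 6.99-fold, and 4931406P16Rik 6.93-fold. Fkbp5, a cochaperone of steroid receptors, was 6.34-fold lower, Slc45a4 6.08-fold and Ints3, a subunit of Integrator, 5.67-fold. Non-overlapping values were required of these genes too, and their 10-min levels lay between 0.124 and 0.788 RPKM.

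Of the 10 lowest genes by the rule, 5 lie wholly inside a longer gene: Kctd4 in Gtf2f2, B3galt2 in Cdc73, Far1os in Far1 and Igsf6 in Mettl9, all on the strand opposite to the host, and E030024N20Rik in Gnaq on the same strand. Of all genes compared, 29.9% overlap another gene at least in part, and of those called lower 30.6% do. The methods include a split of reads by strand, but whether the deposited gene values used it is not stated, and without it reads of host and nested gene cannot be told apart. Kctd4 (chr14:75955003-75965217, plus strand) had 4.03 and 3.60 RPKM in steady state and 0.104 and 0.0924 at 10 min, 38.8-fold lower. Its host Gtf2f2, a subunit of the general factor TFIIF, had 4.64 and 4.50 RPKM in steady state and 2.19 and 2.38 at 10 min. In steady state the level of Kctd4 thus lay near that of Gtf2f2, and at 10 min it lay far below it.

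Far1os and Igsf6 showed the same order. Far1os had 2.89 and 2.41 RPKM in steady state, beside 2.47 and 2.13 for Far1, a fatty acyl-CoA reductase. At 10 min Far1os had 0.0884 and 0.0860 RPKM and Far1 1.14 and 1.28. Igsf6, of the immunoglobulin superfamily, had 2.09 and 1.96 RPKM in steady state, beside 2.06 and 1.94 for Mettl9. At 10 min Igsf6 had 0.0540 and 0.0546 RPKM and Mettl9 1.29 and 1.18. B3galt2, a galactosyltransferase gene, had 3.07 and 2.53 RPKM in steady state beside 3.60 and 3.21 for Cdc73, and fell 39.5-fold.

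Over all nested protein-coding and long noncoding genes on the opposite strand, with at least 20 reads on average, the ratio depended on where in the host the gene lies. Counts are read against the 37.0% higher and 34.4% lower of all genes. With its centre under 20 kb from the host's start, the median log2 ratio was -0.06 (73 genes, 26 higher and 25 lower, near those shares). Between 20 and 40 kb it was -1.55 (46 genes, 7 higher and 37 lower), and between 40 and 80 kb -1.19 (41 genes, 4 higher and 29 lower). Beyond 80 kb the median was again -0.06 (74 genes, 15 higher and 26 lower, the latter near the share of all genes). The median span of the nested genes was 8483 bases in the 20 to 40 kb class, a length at which the median of all genes was above zero. On the same strand as the host, the 49 genes within 20 kb of its start had a median of 0.90, with 35 higher and 6 lower. Further in, the same-strand medians were -0.38 from 20 to 40 kb (14 genes, 3 higher and 7 lower), -0.74 from 40 to 80 kb (9 genes, 0 higher and 4 lower) and -0.55 beyond 80 kb (37 genes, 4 higher and 25 lower). Leaving out every gene that overlaps another, 3129 genes were higher and 3049 lower.

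**Figure D3:**
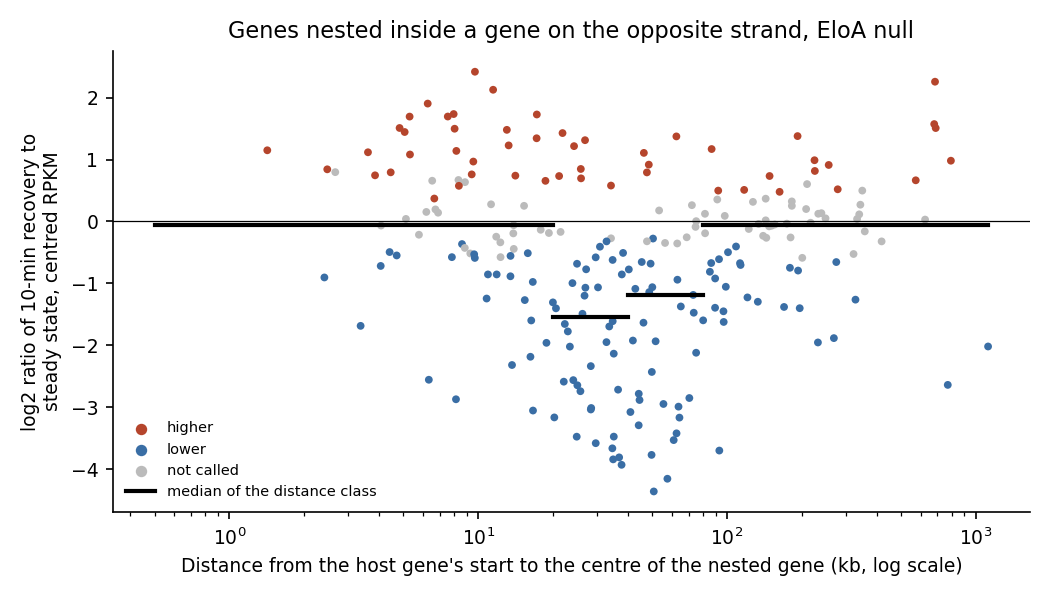
Log2 ratio of 10-min recovery to steady state in EloA null cells (centred RPKM, vertical axis) for genes lying wholly inside a gene on the opposite strand, against the distance from the host's start to the centre of the nested gene (kb, log axis); colours give the limma call and black bars the median of each distance class. The medians are -0.06 under 20 kb, -1.55 from 20 to 40 kb, -1.19 from 40 to 80 kb and -0.06 beyond 80 kb.

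To name genes that overshoot or lag for their length, the trend of each library with gene span was removed before the test. Of 11534 genes with a span, 3734 (32.4%) were then higher and 3624 (31.4%) lower. Genes called before and after in the same direction numbered 3028 higher and 2765 lower. Another 78 genes were lower in RPKM but higher for their length, and 17 were higher in RPKM but lower for their length. Adjustment for length therefore left most of the calls in place.

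The highest length-adjusted ratio under the limits of the rule was that of Matn2, a matrilin of the extracellular matrix (chr15:34306681-34436242, plus strand, 129562 bases). It had 0.0970 and 0.0812 RPKM in steady state and 1.19 and 1.17 at 10 min, a length-adjusted log2 ratio of 3.39 (SE 0.13, limma adjusted p = 0.00154). Dtnbp1, which encodes dysbindin, a subunit of the BLOC-1 complex (chr13:44922079-45002096, minus strand, 80018 bases), rose from 2.40 and 2.57 to 16.1 and 17.3 RPKM. Its length-adjusted log2 ratio was 3.37 (SE 0.09), and at 18565 reads on average it was the best covered of the 10 genes named for their length. At 5 min it already stood 4.46 above steady state on the log2 scale. Pigz (3.33), Mcmdc2 (3.31) and Spink10 (3.10) completed the highest 5 by length-adjusted log2 ratio. The lowest 5 were Kctd4 (-5.03), B3galt2 (-4.81), Pip (-4.60), E030024N20Rik (-4.53) and Igsf6 (-4.51), of which Pip alone overlaps no other gene.

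Eloa itself overshot. The gene (chr4:136003370-136021649, minus strand, 18280 bases) had 1.96 and 1.89 RPKM in null cells in steady state and 8.74 and 8.93 at 10 min, a 4.60-fold rise (log2 ratio 2.09, SE 0.09, limma adjusted p = 0.000771). RPKM came out as whole reads with the intron length, while the study's methods speak of whole genes. If introns were counted, these values do not check the deletion. In WT cells Eloa had 1.18 and 1.16 RPKM in steady state and 4.65 and 6.51 at 10 min, a log2 ratio of 2.11. The null minus WT difference of the ratio was -0.02 (SE 0.26, limma adjusted p = 0.999). Eed, a Polycomb subunit, rose from 16.6 and 16.3 to 30.8 and 30.1 RPKM (log2 ratio 0.83, SE 0.09, limma adjusted p = 0.00174). Dhx9, an RNA helicase, rose from 25.6 and 22.2 to 40.6 and 40.4 RPKM (log2 ratio 0.71, SE 0.12, limma adjusted p = 0.00567). With quantile normalization the rise of Dhx9 no longer passed the test.

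Of the list members named from here on, Polr2c, Polr2i, Ccnt1, Cdk13, Aff4, Eaf2, Cdc73, Elob, Hspe1, Ddit3, Sox2, Fgfr1, Jak1, Mlx, Zfas1, Meg3 and Malat1 overlap another gene, so their reads are uncertain. The same holds for histone and ribosomal protein genes and for zinc-finger genes such as Zfp345 and Zfp992, whose near-identical copies can share or lose reads when unique alignments are kept.

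Genes of the elongation machinery were taken as lists and read against the shares of all genes, 37.0% higher and 34.4% lower. Length-adjusted counts of a list, here and below, are read against 32.4% higher and 31.4% lower. Of 14 P-TEFb genes and regulators compared, 6 rose and 5 fell (4 and 5 with quantile normalization, 5 and 5 for their length). The catalytic subunit gene Cdk9 had 4.73 and 5.40 RPKM in steady state and 16.2 and 13.0 at 10 min (log2 ratio 1.44), and Ccnt1, its cyclin T1 partner, had 4.22 and 4.20 and then 12.1 and 12.1 (log2 ratio 1.44). The genes of the other cyclins, Ccnk and Ccnt2, rose with log2 ratios of 1.10 and 1.05, the latter not past the test with quantile normalization. Genes of the kinases that pair with cyclin K went the other way, Cdk12 at -1.79 and Cdk13 at -1.28. Mepce, which caps the 7SK RNA, fell (-0.93, not called without the filter). Hexim1, the P-TEFb inhibitor, had 2.15 and 2.90 RPKM in steady state and 2.92 and 2.45 at 10 min, values that overlap.

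Of 9 super elongation complex genes, 3 rose and 4 fell, but 5 rose and 2 fell without the filter on low values. Adjusted for length, 5 were higher and 2 lower as well. Eaf1, an ELL-associated factor, rose from 7.03 and 6.05 to 29.0 and 28.5 RPKM, 4.39-fold, and its paralog Eaf2 rose with a log2 ratio of 1.19. Ell2, an elongation factor gene of 64878 bases, fell from 2.79 and 2.48 to 0.501 and 0.478 RPKM, 5.37-fold lower. The scaffold gene Aff1 fell (log2 ratio -1.08), and Aff4 rose slightly (0.36), a rise that was lost with quantile normalization. Ell had 2.35 and 2.76 RPKM in steady state and 3.12 and 2.55 at 10 min and did not pass the test.

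The list of NELF, DSIF, PAF1 complex and SPT6 genes had 10 of 15 members higher (66.7%) and 1 lower, with a median log2 ratio of 0.72, and 11 higher and 3 lower with quantile normalization. Supt4a and Supt5, the DSIF subunits, rose with log2 ratios of 2.01 and 1.03, Nelfb with 1.92, Supt6 with 1.34 and Paf1 with 1.72. Supt4a, for example, had 2.80 and 2.57 RPKM in steady state and 11.7 and 11.4 at 10 min. Cdc73, a PAF1 subunit gene of 99618 bases that holds B3galt2, was the lower member (-0.53), and Ctr9 did not pass (0.18). After adjustment for length 11 of the 15 were higher and 0 lower.

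Of the lists, RNA polymerase II subunit genes had the largest share of higher members, 12 of 13 (92.3%), with 0 lower and a median log2 ratio of 0.87. With quantile normalization 6 were higher and 0 lower. Polr2g rose from 1.29 and 1.56 to 9.12 and 7.60 RPKM, 5.88-fold, and Polr2d rose 4.73-fold. Polr2j rose with a log2 ratio of 1.41 and Polr2c with 1.23. Polr2a, the gene of the largest subunit, rose from 9.24 and 8.46 to 14.2 and 11.1 RPKM (log2 ratio 0.44, SE 0.13, limma adjusted p = 0.0345), and its direction turned with quantile normalization. Polr2i, with 21.3 reads on average, did not pass. The median span of the 13 genes was 6257 bases, and after adjustment for length 8 were higher.

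Among 6 Elongin complex genes 3 rose and 1 fell, and 2 rose and 2 fell with quantile normalization. For their length, 2 were higher and 0 lower. Besides Eloa, Eloc, the elongin C gene, rose from 9.15 and 7.81 to 25.8 and 25.5 RPKM (log2 ratio 1.53), and Rnf7, a RING partner of CUL5, rose with 0.73, or 0.0878 and not called with quantile normalization. Cul5 fell (-0.36), a call lost when any 1 library was left out and turned to 0.188 without the filter. Elob had 7.62 and 7.13 RPKM in steady state and 8.73 and 8.87 at 10 min, a log2 ratio of 0.19 that did not pass and that turned negative with quantile normalization. Rbx1 had a log2 ratio of 0.39 and did not pass.

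Promoters are shown for 4 of these genes, as they cover the range from the rise of Eloa, Eaf1 and Cdk9 to the fall of Ell2 after release from the pause. Each runs from 250 bases before to 50 bases after the RefSeq start (GRCm38.p6, 300 bases, 5′ to 3′ on the gene's strand), and capitals mark CCGGAAG, the core letters bound by ETS-family factors, found on either strand.
Eloa: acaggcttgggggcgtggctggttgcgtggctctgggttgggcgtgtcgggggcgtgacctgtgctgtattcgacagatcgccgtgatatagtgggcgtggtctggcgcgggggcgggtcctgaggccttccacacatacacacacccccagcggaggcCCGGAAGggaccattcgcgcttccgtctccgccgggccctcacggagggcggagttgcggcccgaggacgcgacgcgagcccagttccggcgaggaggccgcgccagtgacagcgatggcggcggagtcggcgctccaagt
Eaf1: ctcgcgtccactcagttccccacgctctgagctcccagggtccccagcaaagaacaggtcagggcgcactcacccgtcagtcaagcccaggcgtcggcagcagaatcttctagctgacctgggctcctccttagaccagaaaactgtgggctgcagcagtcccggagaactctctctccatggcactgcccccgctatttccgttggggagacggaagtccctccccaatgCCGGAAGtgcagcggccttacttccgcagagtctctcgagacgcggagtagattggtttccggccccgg
Cdk9: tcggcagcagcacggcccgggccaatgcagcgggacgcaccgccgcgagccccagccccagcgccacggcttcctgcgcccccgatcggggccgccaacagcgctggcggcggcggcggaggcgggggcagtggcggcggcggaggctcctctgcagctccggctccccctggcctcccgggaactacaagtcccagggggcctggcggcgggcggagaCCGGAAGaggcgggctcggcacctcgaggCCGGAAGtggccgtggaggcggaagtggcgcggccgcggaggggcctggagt
Ell2: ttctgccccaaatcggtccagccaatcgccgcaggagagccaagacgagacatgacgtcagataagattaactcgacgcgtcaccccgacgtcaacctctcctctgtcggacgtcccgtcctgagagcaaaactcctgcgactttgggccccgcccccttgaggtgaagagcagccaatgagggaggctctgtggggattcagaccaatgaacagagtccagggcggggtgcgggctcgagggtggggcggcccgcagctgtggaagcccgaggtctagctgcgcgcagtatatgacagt
The windows are chr4:136021600-136021899 (minus) for Eloa, chr14:31494829-31495128 (plus) for Eaf1, chr2:32712735-32713034 (minus) for Cdk9 and chr13:75707234-75707533 (plus) for Ell2. Eloa has 1 match beginning 91 bases before the start, and Eaf1 1 match at 19 bases before it. Cdk9 has 2 matches at 31 and 2 bases before it, and Ell2 has 0 matches. Other motifs of the search below are left unmarked, among them TGACGTCA, which the Ell2 window holds. Ell2 is also longer than the genes of that search. The promoters shown therefore do not test whether a match goes with the rise.

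The search covered CCGGAAG and its reverse complement CTTCCGG in the promoters of protein-coding genes of 5 to 20 kb with no overlapping gene, 2178 of 2696 of which matched a promoter. The letters were chosen after the values were seen, and a match is a description and not a site. Of these promoters 515 (23.6%) held CCGGAAG, against 9.12% of all 27025 promoters in the RefSeq table. The shares here and in all promoters were 63.3% and 35.9% for GGGCGG, 42.9% and 37.9% for CCAAT, 11.0% and 7.24% for CACGTG, 3.63% and 1.88% for TGACGTCA and 6.52% and 14.2% for TATAAA. The 515 genes had a median log2 ratio of 1.02 and 77.9% of them rose, while the others had a median of 0.66 and 61.0% rose. In WT cells the medians were 1.02 and 0.64. For the other motifs, also searched on both strands, the medians with and without a match lay closer together: TATAAA (median 0.76 with and 0.75 without), CCAAT (0.80 and 0.69), GGGCGG (0.74 and 0.78), TGACGTCA (0.84 and 0.75) and CACGTG (0.83 and 0.74). By the share of genes that fell, TGACGTCA (5.06% with and 13.8% without, 79 genes with a match) separated the genes about as far as CCGGAAG (6.80% and 15.5%). None of these motifs contains CCGGAAG or lies within it, though matches can overlap at their ends. Median steady-state RPKM was 2.17 with CCGGAAG and 1.79 without, and its part in the difference was not tested.

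Level and base composition also moved with the ratio in all 2696 protein-coding genes of 5 to 20 kb without an overlapping gene. In 4 equal classes by steady-state RPKM, the median log2 ratio was 0.21 in the lowest, then 0.64, 0.98 and 0.97 in the highest, where 552 of 674 genes rose and 20 fell. The steady-state RPKM is also the denominator of the ratio. In 4 classes by GC content of the span, it was 1.17 in the lowest (34.6% to 43.9% GC, 556 of 674 genes higher), 0.90 and 0.67 in the middle and 0.18 in the highest (51.2% to 60.3% GC, 276 of 674 higher and 172 lower). Removing the trend of each library with GC left 4276 genes higher and 4356 lower over all genes.

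Stress and signalling lists differed in how many members recovered above steady state. All lists from here on are read against the 37.0% higher and 34.4% lower of all genes. Heat shock and chaperone genes had 13 of 15 members higher (86.7%) and 1 lower, with a median log2 ratio of 1.09, and 9 higher and 2 lower with quantile normalization. Hsp90aa1, the inducible cytosolic HSP90, rose from 28.4 and 24.4 to 75.3 and 72.5 RPKM (log2 ratio 1.43). Hspa5, the chaperone of the endoplasmic reticulum, rose with 1.33, Hspe1 with 1.46 and Hsf1, the heat shock transcription factor, with 0.87. Hspb1, a small heat shock protein, was the member that fell (-0.68, or -0.131 and not called without the filter), from 2.67 and 3.50 to 2.08 and 1.83 RPKM. Bag3, a cochaperone, had a log2 ratio of -0.01. Their median span was 10411 bases, and after adjustment for length 10 were higher and 1 lower.

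Of 21 p53 target genes, 15 rose (71.4%) and 3 fell, with a median of 0.73, and 8 rose and 4 fell with quantile normalization. Trp53inp1 rose from 11.1 and 9.79 to 40.9 and 39.5 RPKM (log2 ratio 1.88), Mdm2, the ubiquitin ligase of p53, from 11.0 and 10.3 to 36.1 and 34.6 (1.67), and Phlda3 with a log2 ratio of 1.47. Cdkn1a, the p21 inhibitor of cyclin-dependent kinases, rose less (0.52) and not past the test with quantile normalization. Sesn1 fell (-1.69), as did Gdf15 (-1.02, not called without the filter). After adjustment for length 6 of the 21 were higher and 4 lower, so the share of higher members was no longer above that of all genes (32.4%).

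Immediate early genes, which respond to stimuli without new protein, had 9 of 31 members higher (29%) and 6 lower (19.4%), and a median of 0.18. Without the filter on low values 19 were higher and 2 lower. Adjustment for length reversed the order, with 4 of the 31 higher and 11 lower. Mcl1, an antiapoptotic BCL2 relative, rose from 28.4 and 24.7 to 60.6 and 49.2 RPKM (log2 ratio 0.98), Dusp6 with 0.96 and Klf6 with 0.84, which quantile normalization took below the threshold. Jund (-1.14) and Arc (-1.19) fell, Arc on 10.8 reads on average. The Jund call was lost without the filter and with quantile normalization. Fos (0.23), Jun (0.13), Myc (0.35) and Ier2 (-0.26) did not pass. Fos had 0.506 and 0.363 RPKM in steady state and 0.547 and 0.547 at 10 min.

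Genes of the ATF4 stress response had 5 of 14 members higher and 6 lower (median -0.25), but 7 higher and 4 lower without the filter on low values. The serine synthesis genes Phgdh (-2.02) and Psat1 (-1.20) and the factor Ddit3 (-1.24) fell, while Slc3a2 (0.86) and Asns (0.54) rose, neither of these past the test with quantile normalization. Atf4 had 5.72 and 8.19 RPKM in steady state and 5.54 and 5.32 at 10 min and did not pass. After adjustment for length 0 of the 14 were higher and 8 lower. In the MYC network, 2 of 10 rose and 4 fell (4 and 3 without the filter), with Mlx at 1.16 and the MYC antagonists Mxi1 and Mga at -1.84 and -1.27. For their length, 2 of the 10 were higher and 7 lower.

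Core and naive pluripotency genes had 9 of 23 members higher (39.1%, near the share of all genes) and 4 lower (17.4%), with a median of 0.26. With quantile normalization 5 were higher and 10 lower, and with adjustment for length 8 were higher and 6 lower. Nr0b1 (1.34), Klf5 (1.19) and Tbx3 (1.10) rose, Tbx3 from 27.7 and 24.2 to 60.3 and 55.5 RPKM. Pou5f1, with 10.6 and 16.5 RPKM in steady state and 18.3 and 16.4 at 10 min, Nanog, with 24.4 and 25.6 and then 34.1 and 25.8, and Esrrb (log2 ratio 0.23) did not pass. Sox2 had a log2 ratio of 0.26 and did not pass, and Sox2 and Esrrb turned negative with quantile normalization. Prdm14 (-0.67, or -0.124 and not called without the filter) and Pecam1 (-1.83) fell, the latter from 2.72 and 2.84 to 0.816 and 0.681 RPKM.

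Signalling genes of the ES cell state are read against the same 37.0% higher and 34.4% lower of all genes. FGF-ERK feedback genes had 4 of 11 members higher and 4 lower, 36.4% each and near those shares (7 and 1 without the filter on low values). Adjusted for length, 5 were higher and 3 lower. The inhibitors Spry4 (1.90), Dusp4 (1.63) and Spry2 (1.10) rose, Spry4 from 1.93 and 2.77 to 9.39 and 9.19 RPKM, while Spry1 (-0.71) and the receptor gene Fgfr1 (-1.37) fell. The fall of Spry1 was lost without the filter (-0.164) and with quantile normalization. BMP and Nodal feedback genes had 6 of 12 higher and 2 lower, but 3 higher and 4 lower for their length. Tgif1 (1.51) and Smad7 (0.83) rose, the latter not past the test with quantile normalization, and the repressors Ski (-1.89) and Smad6 (-1.82) fell. LIF-STAT3 genes had 2 of 12 higher and 5 lower (5 and 3 without the filter on low values), with the receptor gene Lifr (-1.25), the kinase gene Jak1 (-1.63) and Stat3 (-1.64) all lower. For their length, 2 of the 12 were higher and 6 lower. Stat3 had 2.38 and 2.64 RPKM in steady state and 0.813 and 0.729 at 10 min.

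**Figure D4:**
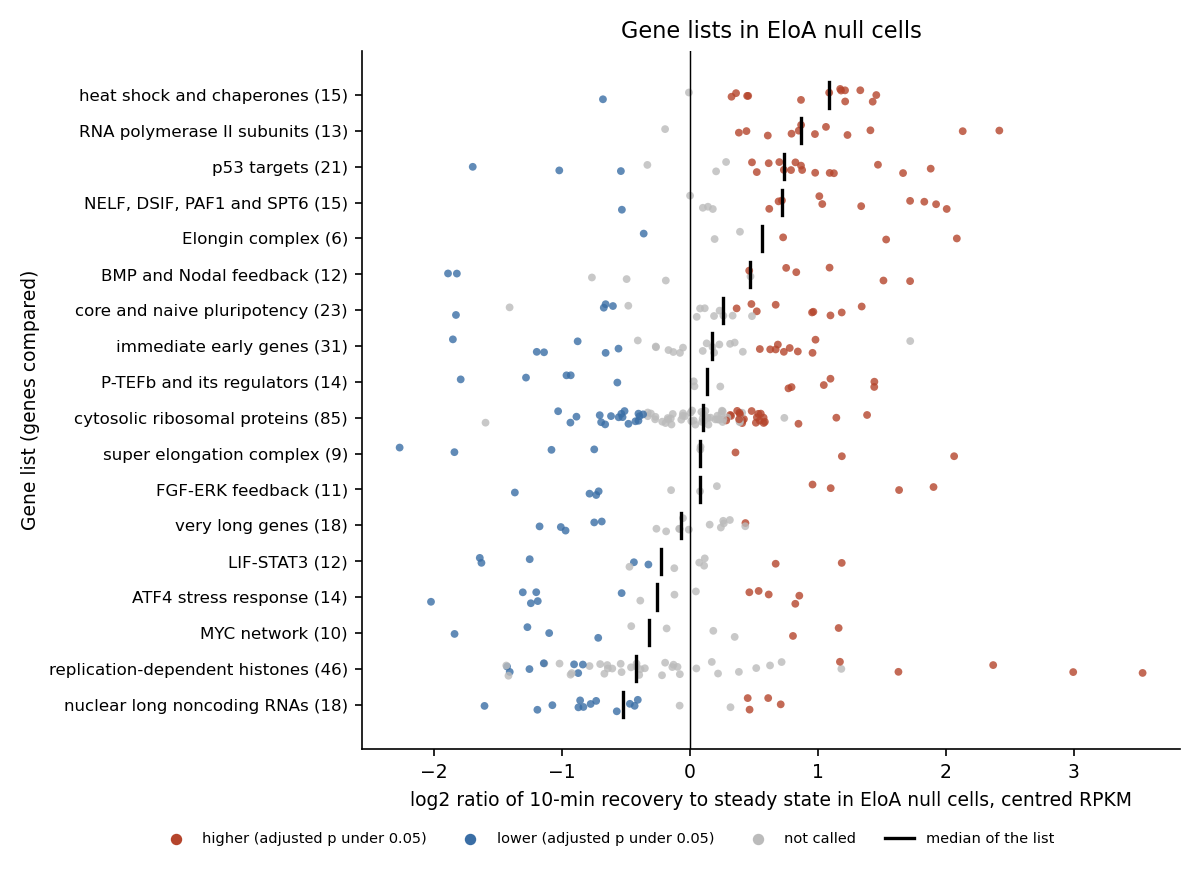
Log2 ratio of 10-min recovery to steady state in EloA null cells (centred RPKM, horizontal axis) for the members of each gene list with at least 6 genes compared (number in brackets); each point is a gene, coloured by its limma call, and black bars are list medians. Heat shock genes (median 1.09) and Pol II subunit genes (0.87) lie furthest to the right and long noncoding RNAs (-0.52) furthest to the left.

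Of 18 nuclear long noncoding RNAs, 4 were higher and 12 lower (66.7%), with a median of -0.52, but 6 were higher and 4 lower without the filter on low values. Adjusted for length, 1 was higher and 9 lower. Of the 18, 12 overlap another gene. The snoRNA hosts Snhg3 (-1.19) and Zfas1 (-1.07) fell, Zfas1 from 46.1 and 38.1 to 22.0 and 19.4 RPKM, and the imprinted Meg3 fell (-1.60). Neat1, the scaffold RNA of paraspeckles, rose from 6.44 and 6.92 to 10.8 and 10.6 RPKM (log2 ratio 0.61), and turned to -0.13 with quantile normalization. Malat1 had 88.7 and 88.3 RPKM in steady state and 123 and 108 at 10 min and did not pass (limma adjusted p = 0.0629).

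The cytosolic ribosomal protein genes had 22 of 85 members higher (25.9%) and 17 lower (20%), and a median of 0.11. Their direction depended on the processing, with 2 higher and 54 lower under quantile normalization but 57 higher and 0 lower without the filter on low values. For their length, 5 of the 85 were higher and 28 lower. Replication-dependent histone genes had 5 of 46 higher and 7 lower, but 9 and 1 without the filter on low values and 5 and 9 for their length. Transcripts of other polymerases fell or did not pass. Rn45s, the Pol I precursor of ribosomal RNA, went from 1797 and 1720 to 1310 and 1067 RPKM (log2 ratio -0.63, limma adjusted p = 0.0407). This call was lost without centring, with a pseudocount of 1, without the filter on low values, with quantile normalization and with 3 of the 4 libraries left out in turn. The paper's protocol depleted ribosomal RNA before library preparation, and the part of that step in the Rn45s values was not tested. The Pol III genes Rmrp (-0.23) and Rpph1 (-0.25) did not pass. Both neural markers compared fell, Tubb3 with a log2 ratio of -2.04 and Nes with -0.91, the latter lost without the filter (-0.367), with quantile normalization and with all 12 libraries in the fit.

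Very long genes stood near their steady-state share of the library. Of 18 such genes compared, with a median span of 494497 bases, 1 rose and 5 fell, against 3 higher and 2 lower with quantile normalization and 11 and 3 without the filter on low values. Adjusted for length, 7 were higher and 3 lower. Exoc4, an exocyst subunit gene of 724852 bases, rose from 3.55 and 3.57 to 4.56 and 5.58 RPKM (log2 ratio 0.43, limma adjusted p = 0.0497), a call that several alternatives lost. At 5 min its log2 ratio had been 2.92. Wwox fell (-0.97), though not with quantile normalization (-0.134), and Ptprg did not pass (0.27). Jarid2, a Polycomb cofactor gene of 190870 bases, fell from 13.5 and 14.5 to 7.04 and 7.39 RPKM (-1.01).

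The last question was whether recovery in null cells differed from recovery in WT cells. In a limma fit of all 8 libraries of both genotypes, 2 of 11763 genes (0.0170%) passed an adjusted p of 0.05 for the null minus WT difference of the log2 ratio, and 399 had an unadjusted p under 0.05. Both are microRNA genes with 0 to 3 reads per library. Among 9425 genes with at least 100 reads on average over these 8 libraries and 1 kb the smallest adjusted p was 0.415, and 195 (2.07%) had an unadjusted p under 0.05. The difference had a median SE of 0.167 and stood at -0.27 and 0.24 at the 5th and 95th percentile of these genes. The single gene of the 9425 past 2-fold was Mfsd2b, named after its values were seen, with a log2 ratio of -0.30 in null and -1.43 in WT cells (difference 1.13, SE 0.23, limma adjusted p = 0.572). Pip, which falls short of 100 reads on average once the WT libraries are counted, had a ratio of -4.15 in null and -2.55 in WT cells (difference -1.60, SE 0.24, limma adjusted p = 0.303). Pip passed with a pseudocount of 1 and with a minimum of 20 reads. A difference that does not pass is not shown to be absent. For the genes picked above by the size of their ratio or length-adjusted ratio, other than Pip, the null and WT ratios differed by at most 0.49 (Zfp14). The WT ratios were, for example, 4.33 for Pigz, 3.56 for Hist1h2bc, 2.40 for Dad1, -4.58 for Lcor, -3.41 for Gatad2b and -2.99 for Pik3ca.

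**Figure D5:**
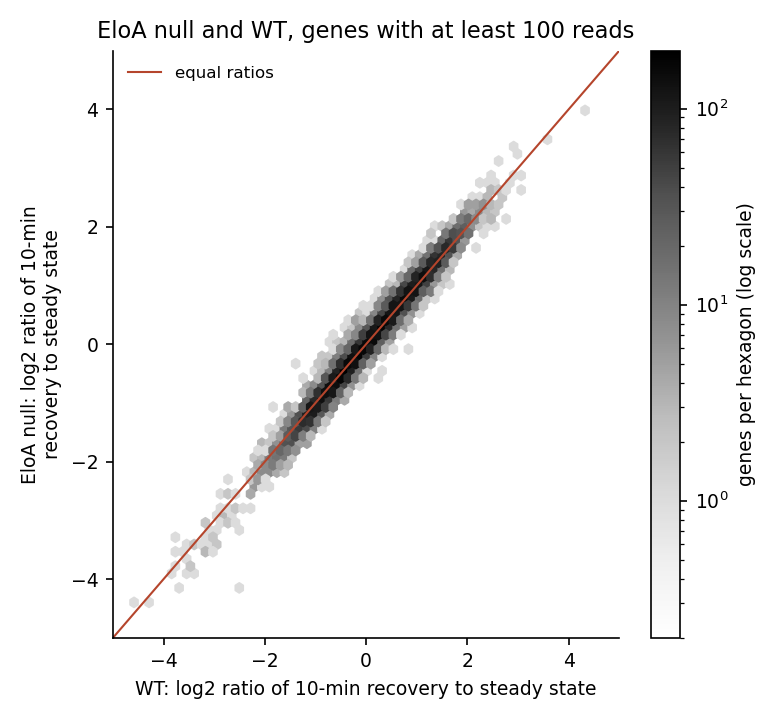
Log2 ratio of 10-min recovery to steady state in EloA null cells (vertical axis) against that in WT cells (horizontal axis) for genes with at least 100 reads on average over the 4 null libraries; shading gives the number of genes per hexagon on a log scale and the line marks equal ratios. Genes lie along the line in both directions, and the gene furthest from it is Pip, at -4.15 in null and -2.55 in WT cells. The 2 genes that passed the test of the difference have too few reads to be plotted.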

How the data were processed

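Per the labels and the paper's methods, the authors aligned paired-end reads with Bowtie2 (version 2.3.4.3) to mm10, with dm3 for Drosophila spike-ins, kept unique alignments with SAMtools, counted RefSeq genes with featureCounts (1.6.1) and made RPKM values with edgeR. The methods also split reads by strand, but whether the gene values used this split, and how tables were scaled to each other, are not given in the sources used here. The deposited RPKM gave whole reads for 96.54% to 96.87% of genes with introns when length was that of the introns, and those reads summed to 98.99% to 99.45% of each library size, so each library is scaled by its own total. The spike-ins were not analysed here. Genes were matched to RefSeq GRCm38.p6 by symbol (24420) or older symbol (423), 26 came from spreadsheet dates, and 115 were unmatched.

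Values were log2(RPKM + 0.1), which understates changes of low genes, centred on each library's median and tested with limma (3.58.1, R 4.3.3) with an intensity trend and Benjamini-Hochberg adjustment, all after a check on simulated data. Without length adjustment, that check called 98.5% of 4-fold, 47.8% of 2-fold and 0% of 1.5-fold changes. Far fewer genes changed in it (67 of 11288 by 2-fold) than were called here, so it does not give the error rate of these calls. Length adjustment removed a lowess trend (span 0.3). Python (3.11.15) did the rest. The named genes are the 10 highest and 10 lowest ratios and the 5 highest and 5 lowest length-adjusted ratios among genes called, without overlap, with at least 100 reads and 1 kb, with Eloa, Eed, Dhx9 and list members. Members and lists were chosen with earlier results of these data known.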

Additional observations from a re-analysis of the deposited data

Results flagged for a closer look

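A pair of microRNA genes passed the test of a different recovery in EloA null and WT cells. Mir5132 (chrX:74023528-74023598) had a null minus WT difference of the log2 ratio of 3.91 (SE 0.19, limma adjusted p = 0.0032), resting on 2 and 2 reads in the null steady-state libraries and 2 and 3 at 10 min, against 2 and 2 and then 0 and 0 reads in WT. Mir7048 (chr7:25217668-25217725) had a difference of 5.96 (SE 0.29, limma adjusted p = 0.0032), from 0 and 0 reads in null cells in steady state and 1 and 1 at 10 min, against 1 and 1 and then 0 and 0 in WT. No library held over 3 reads of either gene, and folds are left out for that reason.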

How the results depend on the processing

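Without the filter on low values 11710 genes were higher (2697 lower), 6230 higher and 5790 lower for their length, and 17 differed from WT. That count was 1 with the mean over all libraries above 0.5, with all 12 libraries or with the GC trend removed, 5 with robust eBayes and 0 with the GC trend removed and the replicate block (limma, 399 unadjusted in the reported fit). The contrast of short and long genes (1.05) was 0.63 with a pseudocount of 1, 0.31 without the filter, 1.17 with at least 20 reads, 1.12 with the GC trend removed and 1.22 among genes that overlap no other gene, an alternative added after the data were seen. Leaving out 1 library at a time gave 3554 to 4083 genes higher, 3348 to 3506 lower, 2638 to 3276 higher and 2874 to 3096 lower for their length, 2 to 9 differing from WT (9 without WT 10-min replicate 1) and a contrast of 0.997 to 1.11. Leaving out steady-state replicate 1 ended the calls of Aff4, Cdc73, Col1a1, Cul5, Exoc4 and Rn45s, steady-state replicate 2 those of Aff4, Cul5, Exoc4, Jund, Polr2a and Spry1, 10-min replicate 1 those of Asns, Cdc73, Cdkn1a, Col1a1, Cul5, Hspb1, Jund, Polr2a and Rn45s, and 10-min replicate 2 those of Aff4, Asns, Cul5, Dhx9, Exoc4, Hspb1, Klf6, Mepce, Prdm14, Rn45s and Spry1. Same-numbered libraries shared only a number (correlation of deviations 0.0104), and the replicate block gave 4160 genes higher and 3860 lower and ended the calls of Aff4, Cul5 and Exoc4.

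Without the filter, which moves every gene by 0.547, the direction turned for Bag3 (0.54), Cdc73 (0.0173), Cul5 (0.19) and Fn1 (0.34). Quantile normalization, which moves genes by -0.706 to 0.713 (5th to 95th percentile), turned Elob (-0.53), Esrrb (-0.50), Exoc4 (-0.0594), Neat1 (-0.13), Polr2a (-0.29) and Sox2 (-0.41), and the GC trend removed with the replicate block turned Rpph1 (0.35). Beyond what each alternative's construction shows, the cause was not tested. Of the 632 length-adjusted values of 40 named genes under the alternatives, 630 kept direction and call, 2 lost the call and 0 turned. Apart from Eloa, Eed and Dhx9, these genes were picked for extreme ratios in the same data, so their stability is no support. Among log2 ratios without length adjustment, list members included, 66 values lost the call, 39 gained it and 11 turned, while 2102 stayed the same. With 2 libraries per condition, depth limits genes of few reads most.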

Other observations

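Annotation classes are read against the shares of all genes, 37.0% higher and 34.4% lower. Of 10040 protein-coding genes, 3881 (38.7%) were higher in EloA null cells at 10 min and 3504 (34.9%) lower, with a median log2 ratio of 0.04. The 611 long noncoding RNAs were near the shares of all genes, with 209 higher (34.2%) and 210 lower (34.4%). The 110 snoRNA genes had 30 higher and 25 lower, although 97.3% of them lie over another gene. The 653 microRNA genes had 101 higher and 178 lower and a median of -0.41, on a median of 3.53 reads, and 83.3% of them overlap another gene, so their reads can be those of the host. Of 98 transcribed pseudogenes 36 were higher (36.7%) and 35 lower (35.7%), again near the shares of all genes.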
